A study of Mus musculus with 15 samples.

Results

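Noncoding host genes of small nucleolar RNAs (snoRNAs) were followed in mouse CD8+ T cells, the cytotoxic T cells, from the spleen. The 9 genes are Gas5, Snhg1, Snhg3, Snhg4, Snhg5, Snhg6, Snhg8, Snhg12 and Snhg15, out of 27019 gene symbols in the count table. They were chosen by symbol, with their levels and fold changes in these same libraries already known, and no single contrast or threshold is recorded for the choice. Every contrast below therefore counts as used for the choice, and the members' test results are given as description. Of the 9 genes, 8 passed the filter on low counts and 1, Snhg3, did not.

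A snoRNA host gene is transcribed as a long precursor whose introns carry the snoRNAs. The excised introns are trimmed to snoRNAs that stay in the nucleolus, where C/D box snoRNAs guide 2'-O-methylation and H/ACA box snoRNAs guide pseudouridylation of ribosomal and spliceosomal RNA. The spliced exons leave as a separate RNA, often a substrate of nonsense-mediated decay, so the level of host RNA and the level of its snoRNAs need not follow each other. Gas5 and Snhg1 are textbook members of the 5' terminal oligopyrimidine (TOP) class, whose RNAs begin with a run of C and T bases and whose translation depends on mTOR and growth. Gas5 was named for its build-up in growth-arrested cells, and its RNA is known as a decoy that binds the glucocorticoid receptor.

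The RNA came from spleens of C57BL/6 mice aged 8 to 10 weeks that all carried OT-I, a transgenic T cell receptor for an ovalbumin peptide. The mice were either WT or Susd2-/-; Susd2 is a membrane protein, and the labels do not tie its loss to T cells alone. Splenocytes were left untreated (day 0) or were stimulated with OVA257-264, the peptide that OT-I recognises, for 3 days (day 3), and CD8+ cells were isolated with a magnetic-bead kit. Each of the 4 groups (WT day 0, Susd2-/- day 0, WT day 3, Susd2-/- day 3) had 2 poly(A)-selected libraries, numbered 3 and 4 at day 0 and 1 and 2 at day 3. Whether each library is a mouse of its own is not stated in the labels, so any p-value here reflects variation among libraries that could be technical only.

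Total counts per library ran from 26829807 to 53846911, and the first principal component, which separated the days, held 87.4% of the variance. The targeted gene followed the labels: Susd2 had 90 and 80 counts in WT day 0, 1 and 3 in Susd2-/- day 0, 16 and 10 in WT day 3, and 0 and 2 in Susd2-/- day 3. The 2 WT day 0 libraries differed little more (chi-square per degree of freedom 3.37) than 2 sequencing lanes of 1 library did (3.01 to 3.17). The other pairs of libraries gave 6.30 (Susd2-/- at day 0), 12.5 (WT at day 3) and 16.0 (Susd2-/- at day 3). Counts of genes called between genotypes at day 0 are therefore also given with the day 0 libraries of each genotype counted as 1 sample. The CD8 T cell identity genes summed to 6810 to 6890 CPM (counts scaled to a common library size) in WT day 0 and to 3520 to 3700 CPM over the day 3 libraries, and none of the 11 was at 0 counts in any group.

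GENCODE M21, an annotation on GRCm38, lists 30 snoRNA genes within the 9 hosts. The 28 outside Snhg4 could be set against host exons, and all 28 lay in an intron of the host transcript with the most exons. A search for box letters sorted them: TGATGA in the first 20 bases with CTGA in the last 20 for C/D, and ACA near the 3' end for H/ACA. By these letters 16 were C/D, 7 were H/ACA and 7 matched neither pattern. Gas5 held 9 snoRNAs (7 C/D, 2 unmatched) and Snhg1 held 8 (5 C/D, 3 unmatched). Snhg5 held 2 and Snhg6 held 1, all of them C/D. Snhg12 held both kinds, with 1 C/D, 2 H/ACA and 1 unmatched. Snhg3 held 2 and Snhg8 and Snhg15 held 1 each, all H/ACA, and Snhg4 held 1 H/ACA and 1 unmatched.

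The snoRNAs below were picked to show both box classes and the hosts whose levels differ most in behaviour. They come from the GENCODE M21 transcripts, 5' to 3', with the C and D boxes or the H box (ANANNA) and ACA box in capitals.
Snord47 (intron of Gas5): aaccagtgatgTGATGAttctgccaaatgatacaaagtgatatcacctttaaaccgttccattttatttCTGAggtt
Snord50a (intron of Snhg5): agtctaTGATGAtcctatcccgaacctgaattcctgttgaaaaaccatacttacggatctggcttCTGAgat
Snord50b (intron of Snhg5): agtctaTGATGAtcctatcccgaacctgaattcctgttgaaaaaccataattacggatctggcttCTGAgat
Snord87 (intron of Snhg6): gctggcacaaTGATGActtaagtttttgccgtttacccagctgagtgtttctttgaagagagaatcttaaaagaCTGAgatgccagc
Snora24 (intron of Snhg8): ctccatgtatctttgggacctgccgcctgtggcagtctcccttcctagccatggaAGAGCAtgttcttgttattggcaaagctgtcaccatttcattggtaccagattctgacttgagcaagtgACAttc
Snora9 (intron of Snhg15): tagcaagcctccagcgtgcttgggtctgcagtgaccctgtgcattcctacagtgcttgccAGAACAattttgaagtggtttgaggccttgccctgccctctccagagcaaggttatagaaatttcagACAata
Snord50a and Snord50b, both 72 bases, differ at 1 base, C50A, counted from 1 at the 5' end with Snord50a first. Snord87 was the only snoRNA of the 9 hosts with a row of its own in the count table.

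**Figure D1:**
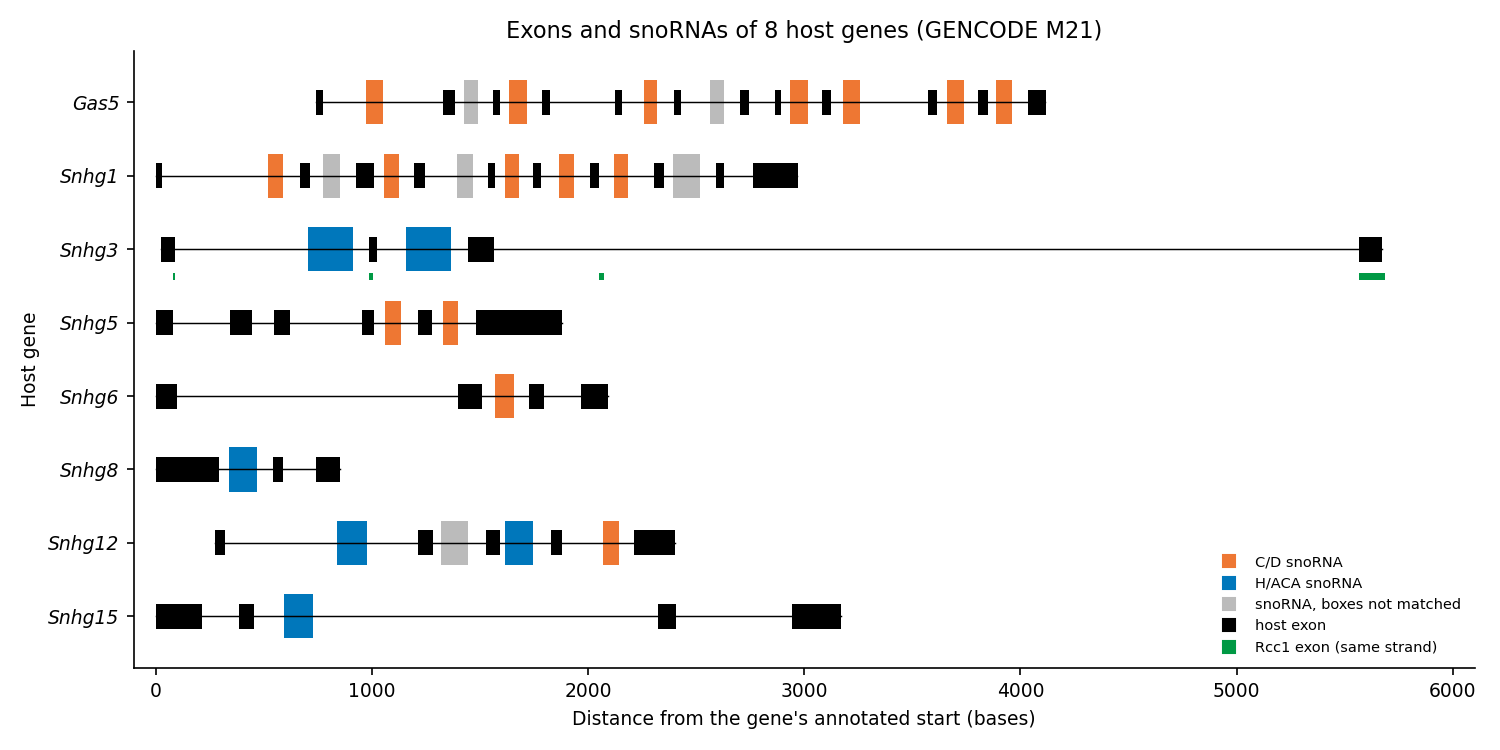
Exons (black) of the host transcript with the most exons and snoRNAs (orange C/D, blue H/ACA, grey boxes not matched) for 8 host genes, along the distance in bases from the annotated gene start; green bars are exons of Rcc1 on the strand of Snhg3. Gas5 and Snhg1 alternate short exons with 9 and 8 snoRNAs, Snhg8 and Snhg15 carry 1 H/ACA snoRNA each, and the exons of Snhg3 share bases with Rcc1.

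The start of 7 hosts could be read from RefSeq (GRCm38.p6), and the windows below, from 25 bases before the start, were searched for runs of C and T, the feature of TOP RNAs when it stands at the start itself. The capitals mark the longest run of C and T on the transcribed strand beginning between 10 bases before and 20 bases after the start.
Snhg1, chr19:8723462-8723521, plus strand: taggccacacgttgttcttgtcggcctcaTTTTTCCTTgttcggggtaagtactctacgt
Snhg12, chr4:132308653-132308712, plus strand: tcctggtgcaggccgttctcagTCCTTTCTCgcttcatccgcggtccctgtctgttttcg
Snhg5, chr9:88522863-88522922, minus strand: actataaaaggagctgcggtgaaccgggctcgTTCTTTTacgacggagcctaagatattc
Snhg8, chr3:123508302-123508361, minus strand: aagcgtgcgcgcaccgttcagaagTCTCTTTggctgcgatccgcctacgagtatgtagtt
Gas5, downstream start, chr1:161035141-161035200, plus strand: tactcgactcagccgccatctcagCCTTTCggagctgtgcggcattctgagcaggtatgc
Snhg15, chr11:6528726-6528785, minus strand: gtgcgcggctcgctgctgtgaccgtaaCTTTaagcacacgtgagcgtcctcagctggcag
Snhg1 and Snhg12 had runs of 9 bases, a length that 8.1% of the 32851 RefSeq windows reach. The runs were 7 bases in Snhg5 and Snhg8 (19.7% of windows), 6 at the downstream start of Gas5 (30.9%), 5 in Snhg3 (49.1%) and 4 in Snhg15 (70.7%). A second RefSeq start of Gas5, upstream of the one shown, had a run of 3 bases, which 89.2% of windows have. Counting the annotated start as base 1, the run spans the start in Snhg12, Snhg8 and the downstream start of Gas5, and begins after it in Snhg1 (base 5), Snhg5 (base 8), Snhg3 and Snhg15 (base 3 in both). CACGTG, the E-box letters read on both strands over 250 bases before to 50 bases after the start, occurred in 1 of the 7 hosts, Snhg15, 11 bases after its start, and in 7.2% of all windows. These matches describe letters in the windows, not bound sites.

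Levels can be compared between genes only per length, and the spliced lengths used here are those of the GENCODE transcript with the most exons. Snhg4, which matched no GENCODE gene by name, had no length, and Snhg3 was at 0 counts in WT. Both are left out of the orders below, so where Snhg4 would stand is not known. In WT day 0, Gas5 (502 bases, 12 exons) stood at 672 ± 8.51 CPM per kilobase (SD, n = 2), followed by Snhg8 at 184 ± 8.37, Snhg1 at 134 ± 4.28, Snhg12 at 91.4 ± 0.047, Snhg15 at 75.6 ± 0.039, Snhg6 at 67.6 ± 11.2 and Snhg5 at 46.9 ± 0.299. Snhg15 and Snhg6, neighbours in this order, did not differ beyond their spread. In WT day 3 the order was Gas5 at 864 ± 36.8, Snhg1 at 287 ± 0.564, Snhg6 at 147 ± 4.29, Snhg5 at 129 ± 6.79, Snhg12 at 128 ± 14.0, Snhg15 at 97.3 ± 4.20 and Snhg8 at 95.1 ± 16.2 CPM per kilobase. With these lengths Snhg8 was second of the ordered hosts at day 0 and last of them at day 3. At day 3 Snhg8 did not differ from Snhg15 beyond the spread, and Snhg5 and Snhg12 could not be told apart. These places depend on the lengths. With the transcripts matched to RefSeq, WT day 0 had Snhg1 at 134 and Gas5 (2556 bases) at 132 CPM per kilobase, level with each other, and Snhg8 (776 bases) next at 106. On the RefSeq-matched lengths Snhg8 was also last of the ordered hosts in WT day 3, at 54.9 ± 9.33 CPM per kilobase. The next hosts above it were Snhg12 at 88.9 ± 9.77 and Snhg15 at 97.3 ± 4.20, both apart from Snhg8.

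Over the 9 hosts together, the summed level was 662 and 660 CPM in WT day 0, 687 and 698 in Susd2-/- day 0, 933 and 979 in WT day 3, and 968 and 1053 in Susd2-/- day 3. The day 3 libraries all lay above the day 0 libraries. The hosts took a small share of all counts, from 0.0696% in WT day 0 to 0.0993% in Susd2-/- day 3.

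Between day 0 and day 3 of peptide stimulation, most of these host RNAs rose, by up to 2.75-fold in WT, and 1, Snhg8, fell by 0.95 on the log2 scale. In WT, 7 of 8 tested hosts rose and 1 fell with edgeR at an adjusted p below 0.05, where 75.2% of all 16057 genes tested passed, 36.2% higher and 39% lower. In Susd2-/-, 6 rose, 1 fell and 1 did not pass (5 rose and 2 fell with total counts in place of TMM scaling), where 76.4% of all genes passed, 36.7% higher and 39.7% lower. The median log2 fold change of the 8 hosts was 0.79 in WT and 0.67 in Susd2-/-, beside -0.14 and -0.12 over all genes tested. With total counts the median of all genes became -0.32 in both genotypes, so each log2 change below would be about 0.2 lower.

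**Figure D2:**
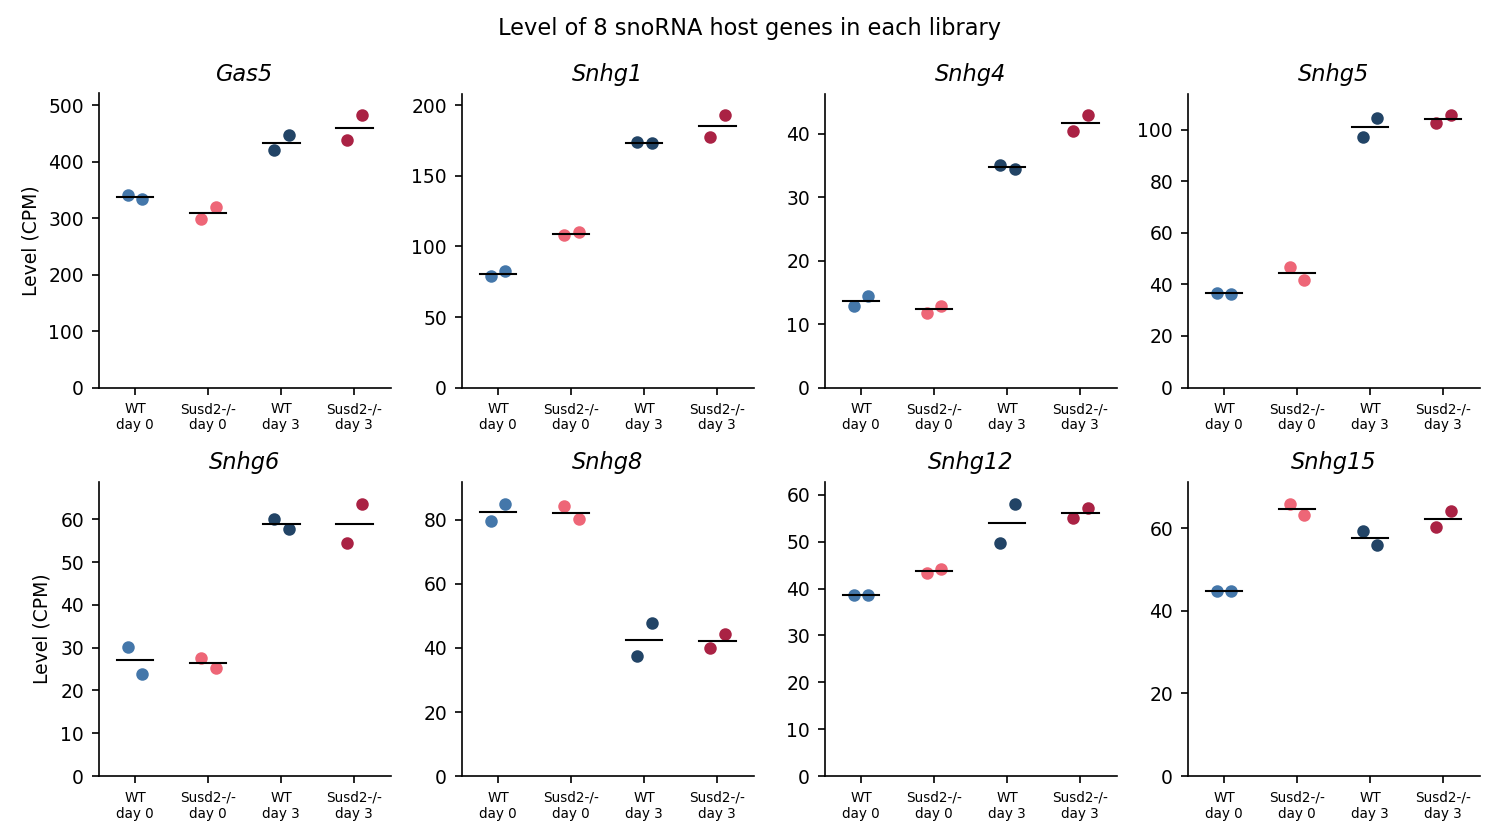
Level in CPM (y axis, from 0) of 8 host genes in each library (points) and the mean of each group of 2 (bars), by genotype and day. Snhg1, Snhg4, Snhg5 and Snhg6 sit higher in all 4 day 3 libraries, Snhg8 sits lower in them, and Snhg15 is low in WT day 0 alone.

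Among the hosts of C/D snoRNAs, Snhg5 moved most in WT. Snhg5 stood at 36.8 and 36.5 CPM in WT day 0, 46.7 and 41.8 in Susd2-/- day 0, 97.1 and 104.6 in WT day 3, and 102.6 and 105.6 in Susd2-/- day 3. No day 0 library came near the day 3 libraries, and the log2 rise was 1.46 ± 0.077 (SE, edgeR adjusted p = 1.77e-12) in WT and 1.23 ± 0.076 (adjusted p = 1.78e-11) in Susd2-/-.

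Snhg1, host of Snord22 and of 5 C/D snoRNAs, stood at 79.0 and 82.6 CPM in WT day 0, 107.8 and 110.1 in Susd2-/- day 0, 173.9 and 173.4 in WT day 3, and 177.5 and 193.0 in Susd2-/- day 3. The 4 day 3 libraries were high, and the Susd2-/- day 0 libraries lay between them and WT day 0. Its log2 rise was 1.104 ± 0.066 in WT (edgeR adjusted p = 1.16e-11) and 0.77 ± 0.065 in Susd2-/- (adjusted p = 2.36e-09).

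Snhg6, host of Snord87, stood at 30.2 and 23.9 CPM in WT day 0, 27.7 and 25.3 in Susd2-/- day 0, 60.1 and 57.7 in WT day 3, and 54.4 and 63.6 in Susd2-/- day 3. The genotypes overlapped on both days while the days did not overlap. The log2 rise was 1.12 ± 0.110 in WT and 1.16 ± 0.109 in Susd2-/- (edgeR adjusted p = 4.02e-08 and 2.32e-08).

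Snord87 itself had only 28 to 84 counts a library, or 1.31 and 0.956 CPM in WT day 0, 1.99 and 1.98 in Susd2-/- day 0, 1.29 and 1.49 in WT day 3, and 1.62 and 1.65 in Susd2-/- day 3. These counts are from poly(A)-selected RNA, which holds few mature snoRNAs. The log2 differences between the days, 0.29 ± 0.371 in WT and -0.28 ± 0.346 in Susd2-/-, did not pass the test (edgeR adjusted p = 0.490 and 0.469), while the host Snhg6 rose in both.

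Gas5 had the most counts of the 9 hosts. It stood at 340.2 and 334.2 CPM in WT day 0, 299.2 and 320.1 in Susd2-/- day 0, 420.6 and 446.8 in WT day 3, and 438.0 and 482.2 in Susd2-/- day 3. The day 3 libraries were all higher than the day 0 libraries, by a smaller factor than for Snhg5. The log2 rise was 0.36 ± 0.065 in WT (edgeR adjusted p = 5.11e-05) and 0.57 ± 0.065 in Susd2-/- (adjusted p = 1.54e-07).

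Snhg12, whose introns carry both box classes, stood at 38.6 and 38.6 CPM in WT day 0, 43.3 and 44.3 in Susd2-/- day 0, 49.7 and 58.1 in WT day 3, and 55.0 and 57.1 in Susd2-/- day 3. The days did not overlap in either genotype. The log2 rise was 0.48 ± 0.086 in WT and 0.36 ± 0.085 in Susd2-/- (edgeR adjusted p = 5.44e-05 and 9.15e-04). With total counts the Susd2-/- rise became 0.16 and did not pass (adjusted p = 0.108).

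Snhg4, a host of the H/ACA snoRNA Snora74a on chromosome 18, stood at 12.8 and 14.4 CPM in WT day 0, 11.8 and 12.9 in Susd2-/- day 0, 35.0 and 34.5 in WT day 3, and 40.4 and 42.9 in Susd2-/- day 3. Its day 3 libraries were the higher ones throughout, and in Susd2-/- it showed the largest log2 rise of the 8 tested hosts, 1.76 ± 0.111 (edgeR adjusted p = 2.45e-11), beside 1.36 ± 0.110 in WT (adjusted p = 1.29e-09). GENCODE M21 has 2 differently named genes, AC121821.1 and Gm28285, on the same strand at this locus, so the assignment of its reads is uncertain.

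Snhg8, host of the H/ACA snoRNA Snora24, went the other way. It stood at 79.7 and 85.0 CPM in WT day 0, 84.4 and 80.2 in Susd2-/- day 0, 37.5 and 47.7 in WT day 3, and 39.9 and 44.4 in Susd2-/- day 3. All 4 day 3 libraries were low, with no overlap between the days, and the genotypes overlapped on each day. On the log2 scale Snhg8 fell by 0.95 ± 0.098 in WT and fell by 0.96 ± 0.097 in Susd2-/- (edgeR adjusted p = 1.21e-07 and 8.94e-08).

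Snhg15, host of the H/ACA snoRNA Snora9, stood at 44.8 and 44.8 CPM in WT day 0, 66.0 and 63.2 in Susd2-/- day 0, 59.4 and 55.9 in WT day 3, and 60.3 and 64.2 in Susd2-/- day 3. The WT day 0 libraries were the low ones, and the other 6 libraries lay close together. The log2 rise was 0.36 ± 0.076 in WT (edgeR adjusted p = 2.62e-04), and the difference in Susd2-/- was -0.05 ± 0.074 (adjusted p = 0.531). With total counts the Susd2-/- difference was -0.25 and passed the test as a fall (adjusted p = 0.00435).

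Snhg3, host of Snora73a and Snora73b, had 1 count in 8 libraries, in Susd2-/- day 3 library 1, and was not tested. For counting error alone, a count of 0 allows up to 3 counts, which is 0.0557 to 0.112 CPM on total counts without TMM scaling. The lanes of 1 library differed by more than counting error (chi-square per degree of freedom 3.01 to 3.17), so this bound is a low one. In GENCODE M21, 83.3% of the exon bases of Snhg3 overlap another gene, 13.7% on the same strand (Rcc1) and 71.5% on the opposite strand (Gm17300, a long noncoding RNA at 0.883 CPM in WT day 0 and 2.41 in WT day 3). Rcc1, which encodes the exchange factor of Ran, stood at 27.0 ± 3.04 CPM in WT day 0, 30.2 ± 0.692 in Susd2-/- day 0, 322.1 ± 27.6 in WT day 3 and 303.4 ± 28.9 in Susd2-/- day 3 (SD, n = 2). How reads over shared bases were assigned is not given in the sources used here, so the level of Snhg3 is uncertain.

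**Figure D3:**
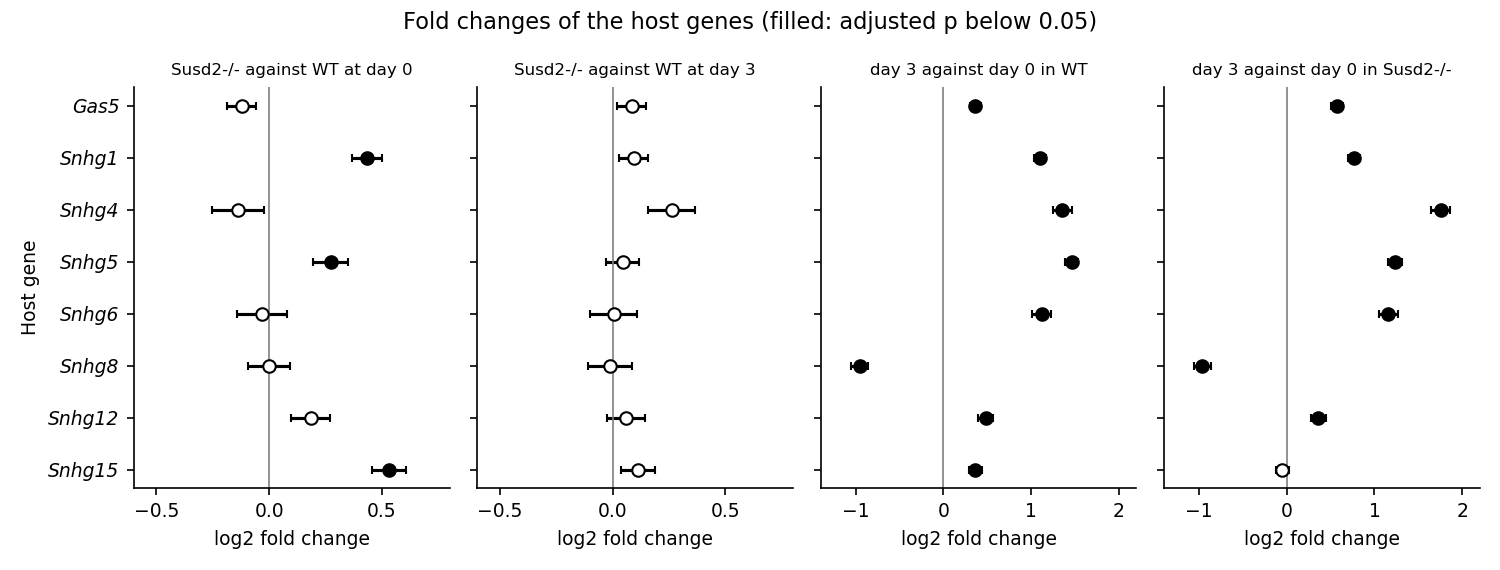
Log2 fold change (x axis) with its standard error (bars) of 8 host genes (y axis) in the 4 contrasts of genotype and day; filled points have an edgeR adjusted p below 0.05. The left panels, on their own narrower scale, show Snhg1, Snhg5 and Snhg15 above 0 at day 0 and no filled point at day 3; the right panels show Snhg8 alone well below 0.

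In untreated cells, Susd2-/- and WT differed in a subset of these hosts. Snhg15, Snhg1 and Snhg5 were higher in Susd2-/- day 0, no tested host was lower, and 5 of 8 did not pass the test. Over all genes tested, 23.6% passed in this contrast, 11.5% higher and 12.1% lower, and the median log2 difference was 0.09 for the 8 hosts and 0.01 for all genes. The level of Snhg15 was 1.44-fold higher (log2 0.53 ± 0.075, edgeR adjusted p = 5.17e-05) and that of Snhg1 1.35-fold higher (log2 0.43 ± 0.066, adjusted p = 1.08e-04), with both Susd2-/- libraries above both WT libraries. The level of Snhg5 was 1.21-fold higher (log2 0.27 ± 0.078, adjusted p = 0.0160), with the groups again apart.

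The other 5 hosts had log2 differences of -0.14 ± 0.115 for Snhg4, -0.12 ± 0.065 for Gas5, -0.03 ± 0.112 for Snhg6, 0.00 ± 0.095 for Snhg8 and 0.18 ± 0.087 for Snhg12, with edgeR adjusted p from 0.143 to 1.0. Snhg4, Snhg6 and Snhg8 overlapped between the genotypes, and Gas5 and Snhg12 did not. Leaving out WT library 3, WT library 4 or Susd2-/- library 3 took away the call of Snhg5 (edgeR adjusted p = 0.0924, 0.106 and 0.185) and left 2 hosts called. Counting the day 0 libraries of each genotype as 1 sample left only Snhg15 called, with Snhg1 at an adjusted p of 0.0788 and Snhg5 at 0.340.

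Markers of other cells moved with genotype at day 0. The 12 monocyte and macrophage markers summed to 88.8 to 89 CPM in WT and 172 to 188 in Susd2-/-, the 10 B cell markers to 532 to 542 and 607 to 672, and the 5 CD4 and regulatory T cell markers to 57.6 to 60 and 72.8 to 81.5. Of the 12, 10 and 5 genes, edgeR called 8, 2 and 1 higher in Susd2-/- (adjusted p below 0.05) and 0 lower. Over all genes, 11.5% were called higher and 12.1% lower. Lyz2 (10.5 and 7.57 CPM) and Cd79b (16.5 and 12.9 CPM) lay lower in Susd2-/-. The B cell sum was mostly Ighm (493.1 CPM in WT, 592.5 in Susd2-/-), and the CD4 sum mostly Ikzf2 (47.5 and 62.2 CPM). The 6 NK cell markers summed to 110 to 113 CPM in WT and 74.6 to 77.2 in Susd2-/-, and the CD8 identity genes in Susd2-/- day 0 to 5950 to 6380. Gzma had the highest level of the NK markers in WT (62.0 CPM, 33.7 in Susd2-/-), and Eomes (26.75 and 29.4 CPM) lay higher in Susd2-/-. Of the 6 NK markers, edgeR called 0 higher and 2 lower, and of the 11 CD8 identity genes 1 higher and 5 lower. Calls in the marker lists were not recomputed with the day 0 libraries of each genotype counted as 1 sample. Neutrophil markers stood at 0.969 to 1.06 and 2.59 to 2.6 CPM, with Ly6g at 0 in WT. No marker of the monocyte, B cell, CD4 or NK lists was at 0 counts over a day 0 group. The part of these cells in the differences of Snhg1, Snhg5 and Snhg15 was not tested, and in bulk RNA fewer cells of a type and less RNA per cell cannot be told apart.

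After 3 days of stimulation, no host differed between the genotypes past the test: edgeR called 0 of 8, with 1 of 8 (Snhg4) at an unadjusted p under 0.05, and DESeq2 and limma voom also called 0. Over all genes, 0.137% passed in this contrast, and 1267 of 16057 had an unadjusted p under 0.05. The log2 differences of the hosts ran from -0.01 ± 0.099 for Snhg8 to 0.26 ± 0.103 for Snhg4 (edgeR adjusted p = 0.525). Of the 8 hosts, 7 were above 0, beside 8002 of the 16057 genes tested. Snhg15 differed by 0.11 ± 0.074 and Snhg1 by 0.09 ± 0.064, below their day 0 differences. At day 3 the monocyte and macrophage markers summed to 11.7 to 15.4 CPM in WT and 11.2 to 13.2 in Susd2-/-, with Adgre1, C1qa, C1qc, Vcam1 and Spic at 0 counts in both. The B cell markers summed to 261 to 267 and 280 to 292 CPM there, with Ms4a1 at 0 counts in both, CD4 markers to 12.6 to 15.3 and 12.2 to 14.5, and NK markers to 11.5 to 12.3 and 6.94 to 7.29.

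The change of the genotype difference between the days was tested as an interaction, which passed for 13.5% of all genes, 6.6% upward and 6.88% downward. It passed for 2 of 8 hosts, both downward. For Snhg15 the genotype difference at day 3 was lower than at day 0 by a log2 value of -0.42 ± 0.106 (edgeR adjusted p = 0.0134), and for Snhg1 by -0.34 ± 0.092 (adjusted p = 0.0201). For the other hosts the interaction was 0.40 ± 0.155 for Snhg4, 0.21 ± 0.091 for Gas5, -0.23 ± 0.107 for Snhg5, -0.12 ± 0.121 for Snhg12, 0.04 ± 0.154 for Snhg6 and -0.01 ± 0.137 for Snhg8 (edgeR adjusted p = 0.0993 to 0.996). Leaving out WT day 0 library 3 or library 4 left 0 of 8 hosts past this test, and leaving out Susd2-/- day 0 library 3 or 4 left 1. Without Susd2-/- day 3 library 1 the Snhg1 interaction was -0.28 and did not pass (edgeR adjusted p = 0.0531), and that of Gas5 was 0.28 and passed upward (adjusted p = 0.0489). With the day 0 libraries of each genotype counted as 1 sample, Snhg15 was at -0.37 (edgeR adjusted p = 0.318) and Snhg1 at -0.29 (adjusted p = 0.421).

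Genes that start beside a host were read with it. Snhg1 starts 106 bases from Slc3a2, a gene on the opposite strand that encodes the heavy chain of the amino acid transporter CD98, and the 2 genes share no bases. Slc3a2 stood at 103.5 ± 5.91 CPM in WT day 0, 147.9 ± 2.42 in Susd2-/- day 0, 300.7 ± 8.47 in WT day 3 and 271.4 ± 11.7 in Susd2-/- day 3 (SD, n = 2). Snhg1 and Slc3a2 thus had the same order of WT day 0, Susd2-/- day 0 and day 3, and Slc3a2 was higher in Susd2-/- day 0 by a log2 value of 0.52 ± 0.065 (edgeR adjusted p = 1.34e-05). Zbtb37, which starts 427 bases from Gas5 on the opposite strand, fell from 48.2 ± 0.633 to 15.3 ± 0.749 CPM in WT (log2 -1.66 ± 0.124, edgeR adjusted p = 5.17e-10) while Gas5 rose. Mcmdc2, which overlaps 11.1% of the exon bases of Snhg6 on the opposite strand, stood at 0.168 to 0.539 CPM in the 4 group means. Gm37362, which starts 3840 bases from Gas5 on its strand, stood at 0.135 to 0.649 CPM.

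Among 13 other noncoding snoRNA hosts listed for comparison, 10 were in the table and 9 were tested. In WT, 4 rose from day 0 to day 3 (Zfas1 0.86, Snhg16 0.83, Dancr 0.78 and Snhg17 0.68 on the log2 scale) and 2 fell (Snhg20 -1.57 and Snhg14 -1.16). In Susd2-/-, Snhg10 rose in addition to these 4, by 1.25 ± 0.522 (edgeR adjusted p = 0.0367), and the same 2 fell (3 rose and 2 fell with total counts). Over all genes, 36.2% rose and 39% fell in WT and 36.7% and 39.7% in Susd2-/-. At day 0, Snhg14, Snhg16 and Snhg17 were higher in Susd2-/- (log2 0.83, 0.54 and 0.24) and Zfas1 was lower (-0.39), beside 11.5% higher and 12.1% lower over all genes. With the day 0 libraries of each genotype counted as 1 sample, edgeR called 0 of the 9, and leaving out single day 0 libraries left 1 or 2 higher and 1 lower. Snhg9 and Epb41l4aos passed the test in none of these 3 contrasts, with log2 values from -0.49 to 0.53 and from -0.30 to 0.16.

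Snhg16, like Snhg15 and Snhg1, was higher in Susd2-/- at day 0. It stood at 22.1 and 21.5 CPM in WT day 0, 32.5 and 30.6 in Susd2-/- day 0, 40.8 and 36.7 in WT day 3, and 40.8 and 35.7 in Susd2-/- day 3. Zfas1 had the opposite order, at 91.7 and 87.1 CPM in WT day 0 and 68.5 and 68.3 in Susd2-/- day 0. At day 3 Zfas1 stood at 162.8 and 161.8 CPM in WT and 164.2 and 177.1 in Susd2-/-, overlapping no day 0 library.

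The 40 protein-coding hosts, many of them ribosomal protein and translation genes, were mostly lower in Susd2-/- at day 0. Of these 40, 2 were higher and 25 lower in Susd2-/- day 0, with a median log2 difference of -0.28, beside 11.5% higher and 12.1% lower over all genes. With the day 0 libraries counted as 1 sample, 0 were higher and 16 lower. The smallest adjusted p-values belonged to Rpl30 (-0.75), Tpt1 (-0.61), Rpl21 (-0.60) and Rpl5 (-0.58), which encode 3 ribosomal proteins and the translationally controlled tumor protein. All 40 protein-coding hosts together took 6.46% and 6.40% of all counts in WT day 0 and 5.26% and 4.98% in Susd2-/- day 0. From day 0 to day 3, 16 rose and 21 fell in WT (median -0.18), and 23 rose and 11 fell in Susd2-/- (median 0.25), where 17 rose and 17 fell with total counts. The hosts of smallest adjusted p in WT were nucleolar or chaperone genes, Hspa9 (2.52), Ncl (2.67), Nop56 (2.13) and Tcp1 (2.03). Whether protein-coding and noncoding hosts differ was not tested.

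The genes of proteins that bind and assemble snoRNAs moved in 1 direction with stimulation. All 20 snoRNP and assembly genes rose from day 0 to day 3 in both genotypes, with a median log2 change of 1.93 in WT and 1.89 in Susd2-/-, while 36.2% and 36.7% of all genes rose. With total counts 19 and 17 of the 20 rose. In WT, Nolc1 rose by 3.00, Ruvbl1 by 2.66, Ruvbl2 by 2.56 and Nhp2 by 2.39. At day 0, 4 were higher in Susd2-/-, among them Nop56 (0.39) and Nolc1 (0.35), and 3 were lower, among them the genes of the H/ACA proteins Nop10 (-0.54) and Nhp2 (-0.47), 7 of 20 beside 23.6% of all genes. With the day 0 libraries counted as 1 sample, 0 were higher and 2 lower, and without WT library 4 or Susd2-/- library 3, 2 were higher and 2 lower. None of the 20 passed at day 3 between genotypes with edgeR, also none at an unadjusted p under 0.05. For Fbl and Gar1, Susd2-/- day 3 libraries 1 and 2 lay far apart, at 504.4 and 274 CPM and at 195.5 and 71.55 CPM. In WT day 3 these genes stood at 527.9 and 484.6 CPM and at 211.8 and 181 CPM. Their log2 differences, -0.38 ± 0.306 for Fbl and -0.57 ± 0.500 for Gar1, have wide errors, so this contrast says little of them.

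Nonsense-mediated decay degrades the spliced RNA of Gas5 and other hosts, and the 16 factors listed for it were mixed. In WT, 9 rose and 5 fell from day 0 to day 3 (median 0.37), with the release factor gene Etf1 (2.24) and the exon junction gene Rbm8a (1.94) up and the kinase gene Smg1 (-1.75) down. In Susd2-/-, 8 rose and 7 fell. The shares over all genes were 36.2% up and 39% down in WT, and 36.7% and 39.7% in Susd2-/-. At day 0, 0 were lower in Susd2-/- and 6 higher, among them Eif4a3 (0.33), Smg1 (0.32) and Rbm8a (0.27), beside 11.5% of all genes higher. That count was 0 with the day 0 libraries counted as 1 sample, 2 without WT library 3 and 3 without Susd2-/- library 4. Of 13 regulators of TOP RNAs and mTOR, 8 rose and 2 fell in WT, with Larp1, whose protein binds TOP RNAs, at 1.88, and 7 rose and 3 fell in Susd2-/-. Those 10 of 13 called in each genotype stand beside 75.2% and 76.4% of all genes, and with total counts 6 rose and 3 fell in WT and 5 rose and 5 fell in Susd2-/-. At day 0, 4 of the 13 were higher in Susd2-/-, among them Larp1 (0.27) and Rptor (0.28), and 1 was lower, Rheb (-0.25), beside 23.6% of all genes called. With the day 0 libraries counted as 1 sample, 0 were called. Without WT library 3, WT library 4 or Susd2-/- library 4, 1 was higher and 0 lower, and without Susd2-/- library 3, 2 were higher and 1 lower.

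**Figure D4:**
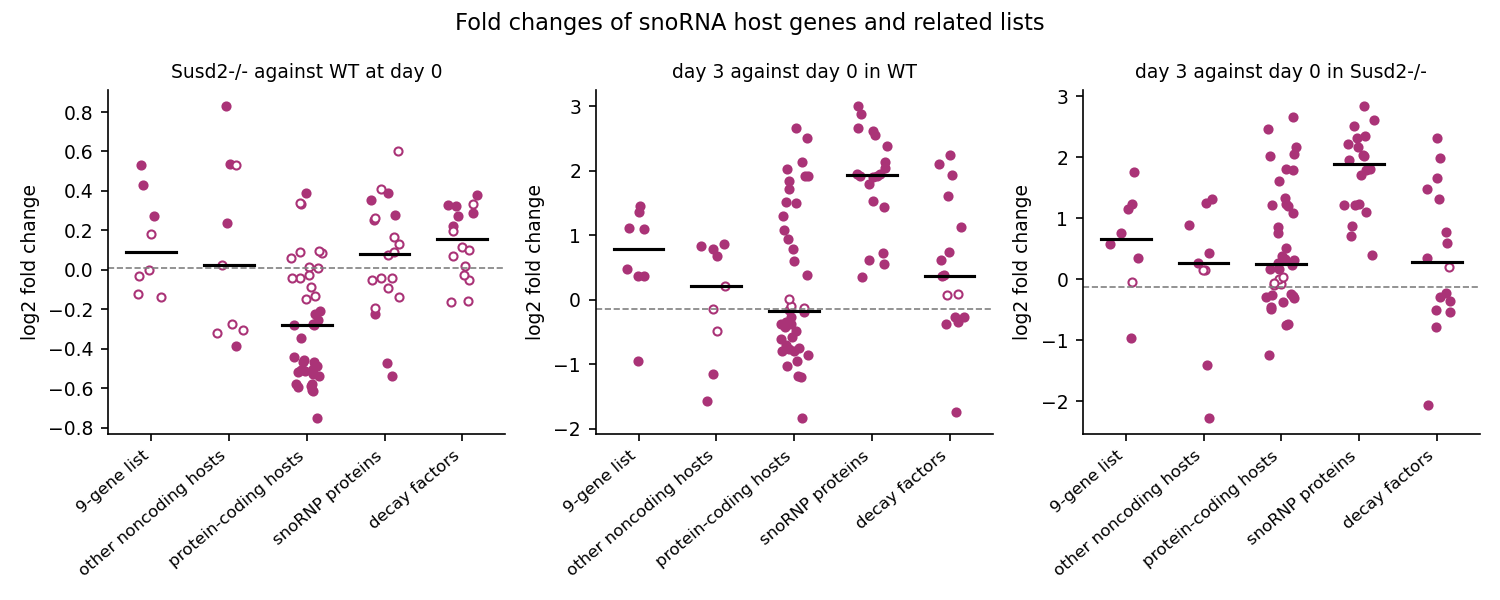
Log2 fold change (y axis, scale set per panel) of each tested gene in 5 lists (x axis) for 3 contrasts; filled points passed edgeR at an adjusted p below 0.05, bars are list medians and the dashed line is the median of all genes tested. Between genotypes at day 0 the protein-coding hosts lie mostly below 0 with a median of -0.28, and the median of the 9-gene list is 0.09. From day 0 to day 3 all 20 snoRNP genes lie above 0 in both genotypes. Nop56, Nop58 and Dkc1 appear both as protein-coding hosts and as snoRNP genes.

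The genes whose log2 level followed the mean of the 8 tested hosts most closely over the 8 libraries were Gemin8 (Pearson r = 0.997), Cdc42bpa (0.993), Vapa (0.993), Pdcd6 (0.992) and Nmral1 (0.992). For Gas5 alone they were Gcfc2 (0.993), Pgm3, Gatb, Faap100 and Uxt (0.990 to 0.991). The libraries share a day and fall into 2 clusters by it, and 1542 of 10679 genes had an r above 0.95 with the mean of the hosts, so the order among these genes is a description of these 8 libraries. Gemin8, a component of the complex that assembles spliceosomal snRNPs, stood at 4.50 and 4.65 CPM in WT day 0, 6.39 and 5.88 in Susd2-/- day 0, 10.4 and 12.4 in WT day 3, and 12.1 and 13.4 in Susd2-/- day 3, an order of groups like that of Snhg1.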

How the data were processed

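The 8 libraries of poly(A) RNA (stranded kit, paired reads) were read from 1 table of whole-number counts per gene symbol that the authors deposited, with 1 column per lane. The submitters' processing notes name build GRCm38 and the tools HISAT2 2.1.0, Subread 2.0.1, fastp 0.23.2 and SAMtools 1.10. Not given in the sources used here were the annotation release, the strand setting and the treatment of shared reads. Lanes were summed (7 libraries had 2 lanes and 1 had 1). Genes were kept by filterByExpr (16057 of 27019), and all 8 libraries were fitted in 1 model with edgeR 4.0.16 (TMM scaling, quasi-likelihood F test, R 4.3.3). Adjusted p-values are Benjamini-Hochberg over all 16057 genes, called below 0.05, and standard errors are the log2 fold change over the square root of F. CPM values use TMM-scaled totals, except the bound given for Snhg3, which uses total counts. Day 3 and day 0 contrasts share libraries.

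The members and the gene lists were chosen with earlier results of these data known. Named were all members, all tested other noncoding hosts, and up to 4 genes of smallest adjusted p per other list. Neighbours that overlap a member or start within 5 kb were named too (the neighbours of Snhg4, without a row, and Gm9369, below the filter, got no values). For likeness, the 5 most alike genes were named, with predicted genes, Riken clones and numbered pseudogenes left out. Exons and snoRNAs come from GENCODE M21, starts from RefSeq; all 9 members matched RefSeq and 8 matched GENCODE by name. Erythroid markers are not reported here. Alternatives were RLE factors, total counts, DESeq2 1.42.0, limma voom 3.58.1, other filters, a replicate block, single libraries left out, first lanes only, the 4 compared libraries only, and day 0 libraries counted as 1. Library numbers did not pair the samples (correlations of deviations 0.009 at day 0 and -0.01 at day 3).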

Additional observations from a re-analysis of the deposited data

Results flagged for a closer look

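The genotype effect differed between day 0 and day 3, by the interaction test of edgeR, for 2 of the 8 tested hosts and for 2 of the 9 other noncoding hosts, beside 13.5% of all genes. The log2 interaction was -0.42 for Snhg15 and -0.34 for Snhg1 (edgeR adjusted p = 0.0134 and 0.0201), each higher in both Susd2-/- libraries than in both WT libraries at day 0. It was -0.56 for Snhg16 (edgeR adjusted p = 0.0137), in the same direction, and 0.46 for Zfas1 (adjusted p = 0.00282), which was lower in Susd2-/- at day 0. With the day 0 libraries of each genotype counted as 1 sample, none of these 4 genes passed the interaction test (edgeR, 0 of 8 and 0 of 9 called). The call of Snhg1 was also lost without WT day 0 library 3 or 4, Susd2-/- day 0 library 4, or Susd2-/- day 3 library 1. That of Snhg15 was lost without WT day 0 library 3 or 4, or Susd2-/- day 0 library 3. Both calls were lost without a filter on low counts.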

How the results depend on the processing

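Of 712 recomputed values of the 8 tested hosts (40 contrasts of a host under up to 18 alternatives), 691 kept their side of the threshold. Of the rest, 18 lost the call and 3 gained it. Where the main fit or the alternative passed the test, 0 values reversed their sign. Values that passed in neither could change sign and still count among the 691. Snhg6 did so between genotypes at day 0 (log2 -0.19 to 0.15). The number of hosts called between days was 8 in WT and 7 in Susd2-/- under each alternative run (with total counts 5 rose and 2 fell in Susd2-/-), and 0 between genotypes at day 3. At day 0 it was 3, and 2 to 3 with single libraries left out, 2 without a filter on low counts, and 1 with day 0 libraries counted as 1. For the interaction it was 2, and 0 to 2 with single libraries left out, 0 without a filter, and 0 with day 0 libraries counted as 1; fewer samples enter when libraries are left out or merged, and the cause of the loss without a filter was not tested. With the 4 day 0 libraries alone, Gas5 was lower in Susd2-/- by a log2 value of -0.14 (edgeR adjusted p = 0.0163). With the replicate block on library number the hosts called stayed at 3, 0, 8, 7 and 2 in the 5 comparisons, and all genes called were 3406, 17, 11022, 11030 and 1796. Over all genes, 3792 were called at day 0, against 2000 to 2452 without single day 0 libraries and 776 with those counted as 1. At day 3 between genotypes they were 22, against 66 with DESeq2, 138 without a filter and 5 to 380 with libraries left out. For the interaction they were 2164, against 1058 to 1420 without single day 0 libraries and 419 with day 0 counted as 1. Depth limits what can be said of Snhg3 (1 count in all) and of Snord87 (28 to 84 counts a library).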
